A study of Homo sapiens with 11 samples.

Results

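The genes described are 8 secreted stress factors, VEGFA, GDF15, STC1, STC2, ADM2, INHBE, EDN1 and FGF21, out of 38021 genes counted in HEK293T cells. HEK293T is an established line derived from human embryonic kidney. They were chosen by name. All 8 held more than 10 counts in at least 1 library, so none was left out, and all 8 passed the filter on low counts both with and without the thapsigargin libraries. The cells were wild type (WT) and were treated for 6 h. The 11 conditions were vehicle (0.1% DMSO), thapsigargin (Tg) at 500 nM, the compound AA147 at 10 µM, and the compound AA132 at 0.1, 0.3, 1, 3, 6, 10, 15 or 30 µM. Each condition had 3 libraries. The labels list 1 sample per condition and do not say what the numbered columns are, so p-values measure the spread between these libraries, which may be technical.

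Secreted factors carry the stress state of a cell to its neighbours and to other organs. When unfolded protein collects in the endoplasmic reticulum (ER), the kinase PERK phosphorylates the initiation factor eIF2α and the transcription factor ATF4 is made, which with its partner CHOP (gene DDIT3) switches on metabolic, death and secretory genes. The sensors IRE1 and ATF6 act through the factors XBP1s and cleaved ATF6. Thapsigargin empties the ER of calcium by blocking its calcium pump, while AA147 and AA132 are small molecules studied for selective activation of this response. Of the 8 genes, VEGFA (growth of blood vessels), EDN1 (the precursor of the vasoconstrictor endothelin) and ADM2 (a vasodilator peptide of the calcitonin family) act on vessels. GDF15 and INHBE belong to the TGF-β superfamily, FGF21 is a metabolic hormone best known from liver, and STC1 and STC2 are the stanniocalcins, glycoproteins linked to calcium and phosphate handling.

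On GRCh38 with GENCODE v44, VEGFA lies on chromosome 6 (43770184 to 43786487, plus strand) and EDN1 on the same chromosome (12290361 to 12297194, plus strand). GDF15 (18374731 to 18389176) and FGF21 (48755524 to 48758333) are both on the plus strand of chromosome 19. STC2 is on chromosome 5 (173314723 to 173328447, minus strand), INHBE on chromosome 12 (57452323 to 57459280, plus strand) and ADM2 on chromosome 22 (50481543 to 50486440, plus strand). ADM2 and SBF1, a gene on the other strand, share 2381 bases, and the use of strand in counting is not given in the sources used here. SBF1 fell in Tg (574 ± 54.9 to 454 ± 8.65 CPM, log2 fold change -0.34, edgeR adjusted p = 4.74e-05), the opposite direction to ADM2. In vehicle ADM2 was at 0.136 ± 0.029 CPM, and whether SBF1 reads entered its counts in any condition was not tested. Unnamed antisense transcripts overlap VEGFA by 188 bases and INHBE by 1685 bases.

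Promoter stretches from RefSeq (GRCh38.p14) are shown for a gene that passed in Tg and at no AA132 dose (FGF21), a gene that rose with both (STC2) and the gene that fell with both (EDN1). Capitals mark a motif match. The bases run 5′ to 3′ on the gene's strand up to the base before the GENCODE start. FGF21 is at chr19:48755274-48755523 (plus strand), STC2 at chr5:173328448-173328664 (minus strand) and EDN1 at chr6:12290111-12290360 (plus strand).
FGF21: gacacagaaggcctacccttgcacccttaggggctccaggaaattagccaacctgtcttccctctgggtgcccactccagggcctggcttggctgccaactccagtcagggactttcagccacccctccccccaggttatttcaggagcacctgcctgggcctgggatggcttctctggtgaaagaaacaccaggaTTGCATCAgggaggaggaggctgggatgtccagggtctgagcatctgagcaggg
STC2: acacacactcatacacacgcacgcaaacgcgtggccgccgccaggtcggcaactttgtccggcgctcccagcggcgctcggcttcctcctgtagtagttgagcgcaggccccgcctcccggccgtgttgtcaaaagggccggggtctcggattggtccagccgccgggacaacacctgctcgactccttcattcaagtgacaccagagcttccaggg
EDN1: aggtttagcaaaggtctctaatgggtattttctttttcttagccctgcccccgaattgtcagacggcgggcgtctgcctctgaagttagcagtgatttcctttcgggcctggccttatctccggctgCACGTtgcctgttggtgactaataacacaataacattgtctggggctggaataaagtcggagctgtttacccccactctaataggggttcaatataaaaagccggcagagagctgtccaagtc
The capitals in FGF21 are TGATGNAA, the core of the C/EBP-ATF response element that ATF4 and CHOP bind, read on the other strand and beginning 54 bases before the start (position -54). This motif was in 3.62% of 35116 whole RefSeq windows searched on both strands, which also hold the bases just after the start and so are longer than the stretches shown. The capitals in EDN1 are ACGTG, the hypoxia response element core, also on the other strand, at position -123. ACGTG was in 21.4% of windows. The STC2 stretch held no match to TGATGNAA, to the full ER stress response element (0.0769% of windows), to ACGTG or the unfolded protein response element core TGACGTG that contains it (1.97%), to the AP-1 site TGANTCA (7.71%) or to the antioxidant response element core TGACNNNGC (13.3%), which had a match 19 bases after the RefSeq start, beyond the stretch shown. The table held windows for 5 of the 8 genes, GDF15, STC2, ADM2, EDN1 and FGF21, with none for VEGFA, STC1 or INHBE. No match to any of these motifs was found in the windows of GDF15 and ADM2, which also rose in Tg. Among these 5 genes TGATGNAA was found in FGF21 alone.

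Library totals ran from 36.36 to 37.96 M counts, apart from library 3 of AA132 10 µM at 32.27 M. Library 1 stood furthest apart in vehicle, AA132 10 µM and AA147, by the chi-square per degree of freedom between libraries of a condition. In vehicle it was 64.5 and 49.9 from the others, which were 7.94 apart. In AA132 10 µM it was 39.06 and 36.43, against 6.89, and in AA147 24.8 and 23.89, against 5.06. Without vehicle library 1, the number of the 8 factors past the threshold described below was 7 for Tg, 1 for AA147 and 2, 3, 2, 4 and 4 for AA132 at 3, 6, 10, 15 and 30 µM, in place of 7, 0 and 1, 2, 1, 4 and 3. In that fit the number called over all genes also rose at 3, 6, 10 and 30 µM. Without AA132 10 µM library 1 the number of factors was 2 at 10 µM and 1 for AA132 against AA147, in place of 1 and 0. Over all genes it was then 340 and 77, in place of 257 and 13. Without AA147 library 1, 3 factors and 306 genes passed at AA132 10 µM. Of the 8 HEK293T marker genes fixed for the check, 7 were above 1 CPM (counts scaled to library size, with TMM factors) in every library, and PAX2 was below that in some. Summed markers of endothelial cells (0.54 to 2.25 CPM), leukocytes (0.3 to 1.83) and hepatocytes (0 to 0.24) were low throughout. The 3 fibroblast markers summed to 19.96 to 50.11 CPM, mostly COL1A1, which was 44.4 ± 5.06 CPM in vehicle and 19.9 ± 0.27 in Tg, and its part in any result was not tested.

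Per kilobase of transcript, VEGFA (4.34 CPM per kb), STC2 (4.05) and EDN1 (3.40) stood well above the other members in vehicle cells. FGF21 (0.214), STC1 (0.185), INHBE (0.132), GDF15 (0.0463) and ADM2 (0.0323) held at most 34 counts in any vehicle library. In Tg the order became STC2 (32.8), VEGFA (12.7), INHBE (3.17), FGF21 (2.92), GDF15 (1.17), EDN1 (0.968), ADM2 (0.617) and STC1 (0.171). All values below are CPM, given as mean ± SD over 3 libraries, unless counts are named.

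Thapsigargin raised 6 of the 8 factors and lowered 1. VEGFA, GDF15, STC2, ADM2, INHBE and FGF21 rose, EDN1 fell, and STC1 did not pass the test. The test was the quasi-likelihood F-test of edgeR with Benjamini-Hochberg adjustment over 17777 genes, called at adjusted p under 0.05. In this comparison 31.2% of all genes passed, 15.8% higher and 15.4% lower. The median log2 fold change was 3.38 over the 8 factors and -0.001 over all genes tested. All comparisons with vehicle share the same 3 vehicle libraries. In bulk RNA, fewer expressing cells and less RNA per cell cannot be told apart.

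STC2, whose product inhibits the protease PAPP-A, was the most abundant factor after Tg. The vehicle libraries held 17.4, 16.7 and 17.6 CPM and the Tg libraries 135.6, 144 and 138. The groups did not overlap, and the fitted rise was 8.09-fold (log2 3.02, SE 0.10, adjusted p = 1.64e-21). VEGFA went from 15.6, 15.5 and 15.9 CPM to 47.7, 47.7 and 41.8, a 2.92-fold rise (log2 1.55, SE 0.09, adjusted p = 3.46e-15). Its vehicle libraries lay close together, and Tg library 3 was the lowest of the treated ones. STC1, the paralog of STC2 (chromosome 8, 23841929 to 23854806, minus strand), held 22, 34 and 23 counts in vehicle and 28, 15 and 30 in Tg. These ranges overlap, and the log2 fold change was -0.11 (95% interval -0.85 to 0.63, adjusted p = 0.851); it was 0.14 without Tg library 2 and 0.11 without vehicle library 2.

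The remaining 4 factors that rose held at most 15 counts in a vehicle library. INHBE, the inhibin βE subunit, held 8, 15 and 13 counts in vehicle and 288, 267 and 305 in Tg, a 23.7-fold rise (log2 4.57, SE 0.42, adjusted p = 1.6e-10). FGF21 held 12, 5 and 15 counts and then 137, 163 and 136 (13.5-fold, log2 3.75, SE 0.40, adjusted p = 3.34e-09). ADM2 held 5, 6 and 4 counts and then 83, 89 and 115 (18.7-fold, log2 4.22, SE 0.55, adjusted p = 2.09e-07). In each of these 3 genes the lowest Tg library was several-fold above the highest vehicle library. For GDF15, which acts on appetite through the receptor GFRAL, the vehicle libraries held 6, 0 and 0 counts and the Tg libraries 61, 53 and 41. Its fitted log2 fold change of 4.60 (SE 0.63, adjusted p = 5.53e-07) rests on the 6 counts of vehicle library 1. Without that library the vehicle group is at 0 and GDF15 was at least 17.4-fold higher in Tg, taking 3 counts per library as the floor.

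EDN1 moved the other way. It held 6.31, 7.05 and 7.46 CPM in vehicle and 1.87, 2.05 and 2.01 in Tg, with no overlap, a fall to 0.285 of the vehicle level (log2 -1.81, SE 0.18, adjusted p = 9.82e-10).

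**Figure D1:**
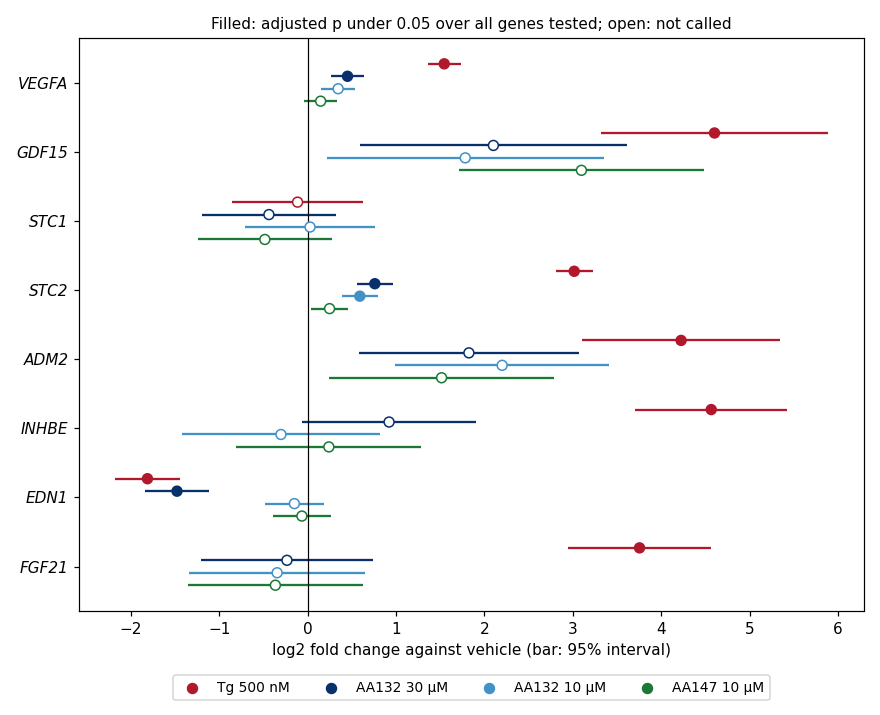
Log2 fold change against vehicle of each secreted factor for Tg, AA132 30 µM, AA132 10 µM and AA147 10 µM, with 95% intervals from the edgeR fit; filled points passed at adjusted p under 0.05 and open points did not. With Tg, 6 factors lie to the right of 0 and EDN1 to the left; with AA132 30 µM the filled points are VEGFA, STC2 and EDN1.

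With AA132 at 30 µM, STC2 and VEGFA rose and EDN1 fell, while GDF15, STC1, ADM2, INHBE and FGF21 did not pass. Of the 8 factors, 2 passed higher and 1 lower, against 7.07% of all genes in either direction, 3.86% higher and 3.21% lower. The number of genes behind that share, 1256, was 710 without AA132 30 µM library 1 and 2011 without vehicle library 1. STC2 held 28.8, 28.1 and 30.7 CPM (1.69-fold over vehicle, log2 0.76, SE 0.10, adjusted p = 4.26e-06). VEGFA held 23.1, 20.9 and 20.3 CPM (1.37-fold, log2 0.45, SE 0.09, adjusted p = 0.00209). All of these libraries were above the vehicle libraries. EDN1 held 2.478, 2.37 and 2.62 CPM, 0.359 of the vehicle level (log2 -1.48, SE 0.18, adjusted p = 8.31e-07).

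Of the scarce factors at 30 µM, ADM2 held 25, 10 and 19 counts (log2 1.82, SE 0.61, adjusted p = 0.0623), each library above those of vehicle. GDF15 held 9, 11 and 7 counts (log2 2.10, SE 0.74, adjusted p = 0.0806; 0.00177 without vehicle library 1, when it was at least 3.04-fold higher). ADM2 passed without AA132 0.3 µM library 1 (adjusted p = 0.041) and without AA132 3 µM library 2 (adjusted p = 0.0374). INHBE held 17, 15 and 36 counts, the lowest level with the highest vehicle library after scaling (log2 0.92, 95% interval -0.06 to 1.90, adjusted p = 0.283). FGF21 held 7, 8 and 12 counts (log2 -0.23, 95% interval -1.21 to 0.74, adjusted p = 0.839), a range that overlaps vehicle; without vehicle library 3 its log2 fold change was 0.07. STC1 had a log2 fold change of -0.44 (95% interval -1.20 to 0.32).

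Set directly against Tg, AA132 at 30 µM gave lower levels of 6 of the 8 factors, where 29.8% of all genes passed, 14.7% higher and 15.1% lower. The doses of the compounds differ. The differences ran from VEGFA (log2 -1.09, SE 0.09, adjusted p = 1.87e-11) through STC2 (-2.25), ADM2 (-2.40), GDF15 (-2.50) and INHBE (-3.64) to FGF21 (-3.99, SE 0.41, adjusted p = 2.06e-09). EDN1 did not pass. Its 3 libraries of AA132 30 µM all lay just above the 3 of Tg, with a log2 difference of 0.33 (95% interval -0.06 to 0.73, adjusted p = 0.209).

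Over the 8 AA132 doses, 3 factors rose and 1 fell with log10 dose, in a fit on the 24 AA132 libraries alone in which 18.7% of 17532 genes passed, 9.9% with a rising and 8.84% with a falling slope. The slope was 0.17 log2 units per 10-fold dose for VEGFA (SE 0.03, adjusted p = 1.6e-05), 0.18 for STC2 (SE 0.03, adjusted p = 4.46e-05) and 0.59 for GDF15 (SE 0.17, adjusted p = 0.0148). For EDN1 it was -0.37 (SE 0.11, adjusted p = 0.0122). DESeq2 called the slopes of VEGFA, STC2 and EDN1 but not that of GDF15. The slopes of ADM2 (0.46, adjusted p = 0.0949), INHBE (0.39, adjusted p = 0.13), FGF21 (0.24, adjusted p = 0.393) and STC1 (0.03, adjusted p = 0.895) did not pass.

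STC2 was above vehicle from the lowest dose. Its means were 22.4 ± 1.76, 20.4 ± 1.48, 21.9 ± 1.32 and 24.0 ± 2.44 CPM at 0.1, 0.3, 1 and 3 µM, and 26.4 ± 2.0, 26.0 ± 4.01, 27.2 ± 0.79 and 29.2 ± 1.36 at 6, 10, 15 and 30 µM. Each of the 24 libraries exceeded the highest vehicle library, though neighbouring doses overlapped. Against vehicle STC2 passed at 3 µM (log2 0.48, SE 0.10, adjusted p = 0.0403) and at 6 µM (0.62, SE 0.10, adjusted p = 4.67e-04), 10 µM (0.59, SE 0.10, adjusted p = 4.97e-04), 15 µM (0.66, SE 0.10, adjusted p = 6.55e-05) and 30 µM. At 0.1 µM it was 1.30-fold (log2 0.38, SE 0.10), with an unadjusted p of 6.45e-04 and an adjusted p of 0.986. The 3 µM call was lost without AA132 3 µM library 1 (adjusted p = 0.427) or 2 (0.181), vehicle library 2 (0.111) or 3 (0.0811), AA132 30 µM library 1 (0.0595) or Tg library 3 (0.0559).

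**Figure D2:**
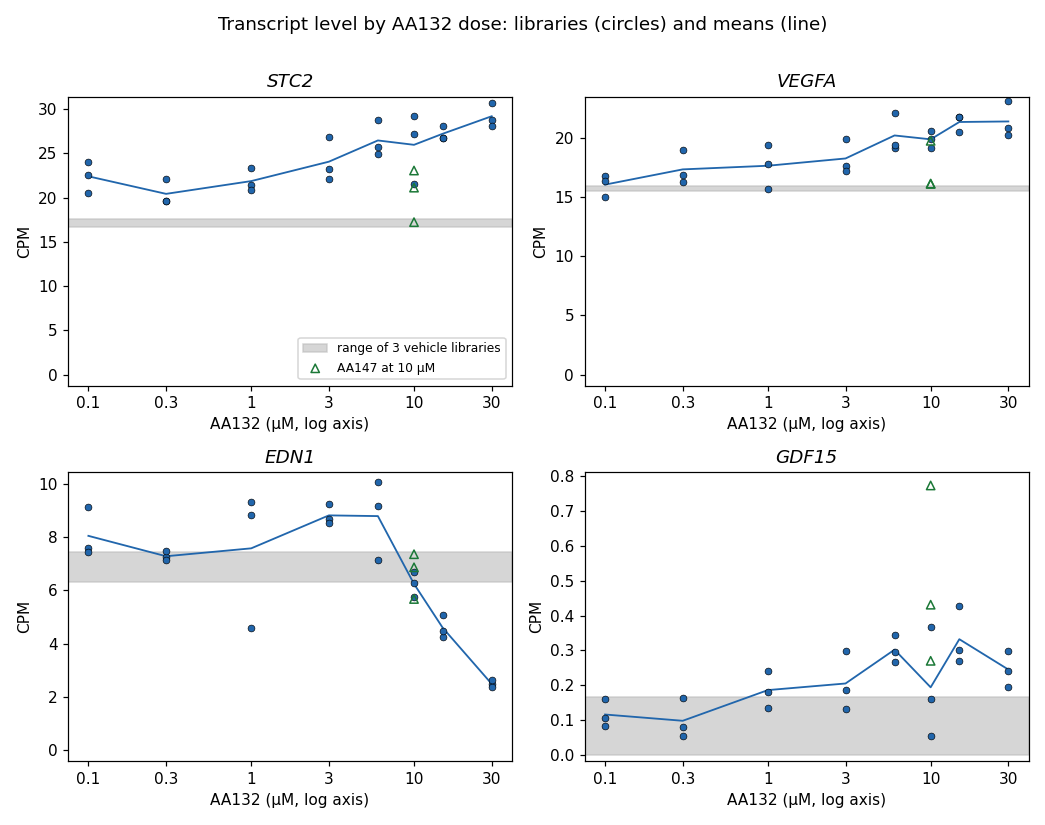
CPM of STC2, VEGFA, EDN1 and GDF15 (1 panel each, linear vertical axes) against AA132 dose (µM, log axis); circles are libraries, the line joins dose means, the shaded band is the range of the 3 vehicle libraries and triangles are the AA147 10 µM libraries. STC2 lies above the band at every dose, the VEGFA mean reaches 21.4 at 30 µM, the EDN1 means are in or above the band up to 6 µM and then fall to 2.49, and the GDF15 mean is highest at 15 µM among the doses.

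For VEGFA the dose means were 16.1 ± 0.96, 17.4 ± 1.42, 17.7 ± 1.88, 18.3 ± 1.46, 20.2 ± 1.61, 19.9 ± 0.72, 21.4 ± 0.70 and 21.4 ± 1.5 CPM from the lowest to the highest dose, against 15.7 ± 0.23 in vehicle. It passed at 6 µM (log2 0.37, SE 0.09, adjusted p = 0.0399), 15 µM (0.45, SE 0.09, adjusted p = 0.00375) and 30 µM, and at 10 µM had a log2 fold change of 0.35 (adjusted p = 0.0517). The 10 µM value passed without AA132 1 µM library 2 (adjusted p = 0.048) or AA147 library 1 (0.0465) or 3 (0.0381). The 6 µM call failed in 14 of 33 leave-one-library-out fits, with adjusted p up to 0.273 (without AA132 6 µM library 1).

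EDN1 did not follow a straight line. The 3 µM libraries held 8.67, 8.54 and 9.24 CPM and the 6 µM libraries 10.1, 7.14 and 9.17, mostly above the vehicle range of 6.31 to 7.46. Neither dose passed (log2 0.35, adjusted p = 0.509 at 3 µM). Levels were then 6.71, 6.26 and 5.77 at 10 µM, 5.08, 4.25 and 4.46 at 15 µM, and lowest at 30 µM. The 10, 15 and 30 µM libraries did not overlap from one dose to the next. Against vehicle the 15 µM log2 fold change was -0.59 (SE 0.17, adjusted p = 0.0447), which failed in 19 of the 33 fits, with adjusted p up to 0.165 (without AA132 15 µM library 2). At 1 µM, library 1 (4.59 CPM) stood apart from libraries 2 and 3 (8.82 and 9.33). Without the 30 µM dose the slope of EDN1 was -0.16 (adjusted p = 0.239).

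GDF15 held 13, 11, 21, 23, 34, 21, 37 and 27 counts summed over 3 libraries from 0.1 to 30 µM, and 6 in vehicle (exact Poisson 95% interval 2.2 to 13.1, counting error only). At 15 µM its libraries held 16, 10 and 11 counts (log2 2.54, SE 0.71, adjusted p = 0.0446). It failed in 22 of the 33 fits, with adjusted p up to 0.159 (without AA132 15 µM library 1). DESeq2 did not call GDF15 at this dose. Without vehicle library 1 it was at least 4.12-fold higher. At 6 µM, with 13, 11 and 10 counts, the log2 fold change was 2.40 (adjusted p = 0.105; 0.0031 without vehicle library 1).

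ADM2 was highest among AA132 doses at 10 µM, with 15, 27 and 25 counts (log2 2.20, SE 0.60, adjusted p = 0.0527), and was not in dose order, with 36 counts summed at 15 µM and 54 at 30 µM. It passed at 10 µM in 7 of the 33 leave-one-library-out fits, with adjusted p from 0.0253 (without AA132 3 µM library 2) to 0.154. INHBE ran from 27 summed counts at 0.3 µM to 68 at both 15 and 30 µM, against 36 in vehicle. FGF21 stayed between 11 and 31 summed counts, against 32 in vehicle, and its lowest sum, at 1 µM, gave a log2 fold change of -1.54 (unadjusted p = 0.00939, adjusted p = 0.791). STC1 lay between 47 and 96, against 79, and its lowest sum, at 6 µM, gave -0.77 (adjusted p = 0.41), each library below vehicle.

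Read dose by dose against vehicle, the number of factors that passed was 1 at 3 µM, higher (0.118% of all genes passed, 0.101% higher and 0.0169% lower). It was 2 at 6 µM, both higher (1.1% of genes, 0.894% higher and 0.203% lower), and 1 at 10 µM, higher (1.45%, 1.06% higher and 0.388% lower). At 15 µM it was 4, STC2, VEGFA and GDF15 higher and EDN1 lower (2.85%, 1.99% higher and 0.861% lower). At 0.1, 0.3 and 1 µM edgeR called 0 of the 8 factors and 0% of all genes. At these doses 1, 1 and 3 of the 8 had an unadjusted edgeR p under 0.05, as did 790, 986 and 1058 of all 17777 genes. DESeq2 called 0, 0 and 0 of the 8. The dose counts from 3 to 15 µM fell to 0, 0, 0 and 1 when only the 2 conditions compared entered the fit, and at 30 µM to 2.

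AA147 at 10 µM gave no factor past the threshold in edgeR, where 0.0225% of all genes passed, 0.00563% higher and 0.0169% lower. At an unadjusted p under 0.05 there were 3 of the 8 (GDF15, STC2 and ADM2), and 1215 of all 17777 genes. DESeq2 called 1 of the 8, GDF15 (adjusted p = 0.0233). GDF15 held 29, 16 and 10 counts, each above the 6, 0 and 0 of vehicle (log2 3.10, SE 0.68, adjusted p = 0.107; 0.00619 without vehicle library 1, when it was at least 6.1-fold higher). ADM2 held 8, 23 and 13 counts, also without overlap (log2 1.51, SE 0.62, adjusted p = 0.643). STC2 held 17.2, 23.1 and 21.1 CPM, which overlaps vehicle (log2 0.25, SE 0.10, adjusted p = 0.64). VEGFA (17.3 ± 2.10 CPM), EDN1 (6.63 ± 0.87 CPM), INHBE (43 summed counts), FGF21 (25) and STC1 (57) had log2 fold changes between -0.48 and 0.24. Of these, the VEGFA libraries lay above and the STC1 libraries below those of vehicle without overlap. Neither passed (edgeR adjusted p = 0.814 and 0.843). The share of all genes whose libraries separate in this way was not counted.

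At the matched dose of 10 µM, AA132 and AA147 were compared for the 8 factors as 1 pair of compounds. No factor passed in edgeR, where 0.0731% of all genes did, 0.0563% higher and 0.0169% lower with AA132. An unadjusted p under 0.05 was seen for 3 of the 8 and for 1416 of all 17777 genes, and DESeq2 called 0 of the 8. For STC2 the log2 difference (AA132 minus AA147) was 0.34 (95% interval 0.14 to 0.54, adjusted p = 0.243), with AA132 libraries at 21.5, 29.2 and 27.1 CPM. Without AA132 10 µM library 1, the lowest, it was 0.46 (adjusted p = 0.0245). GDF15 was lower with AA132, at 14, 2 and 5 counts, by a log2 difference of -1.31 (95% interval -2.44 to -0.19, adjusted p = 0.512), and these libraries overlap those of AA147.

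The other intervals were 0.01 to 0.39 for VEGFA, -0.35 to 1.72 for ADM2, -0.25 to 1.27 for STC1, -1.64 to 0.55 for INHBE, -0.42 to 0.25 for EDN1 and -1.01 to 1.06 for FGF21. A difference of 2-fold is thus inside the interval for ADM2, STC1, INHBE, FGF21 and GDF15, and outside it for VEGFA, STC2 and EDN1. For FGF21 the log2 difference was 0.02, and -0.26 without AA132 10 µM library 3 or -0.08 without AA147 library 3.

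**Figure D3:**
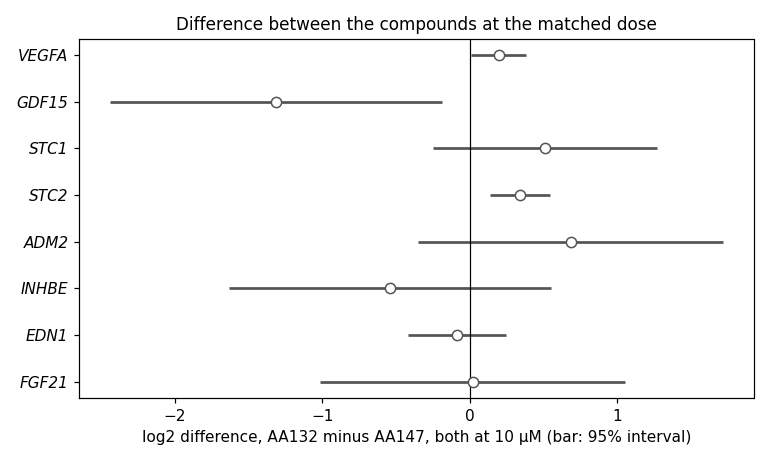
Log2 difference between AA132 and AA147 at 10 µM for each secreted factor, with 95% intervals from the edgeR fit. The intervals of VEGFA, STC2 and EDN1 are narrow, and those of GDF15, STC1, ADM2, INHBE and FGF21 span more than 1 log2 unit.

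In the order of levels, Tg came first for VEGFA, GDF15, STC2, ADM2, INHBE and FGF21, with its libraries above those of the next condition. Below Tg, neighbours overlapped in each of these genes, except that vehicle stood below its nearest neighbour in STC2 and ADM2. For ADM2, vehicle still overlapped AA132 at 0.1, 0.3, 1 and 3 µM, and for STC2 it overlapped AA147. For STC1 every pair of neighbours overlapped, from 0.862 ± 0.142 CPM at AA132 15 µM to 0.417 ± 0.180 at 6 µM. For EDN1 the lower end was ordered without overlap, from AA132 10 µM (6.25 ± 0.47) through 15 µM (4.60 ± 0.43) and 30 µM (2.49 ± 0.13) to Tg (1.97 ± 0.10), while the conditions above them overlapped.

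A list of 18 genes was taken as targets of ATF4 and CHOP, with ATF4 itself included. Of these, 17 rose in Tg (not ATF5), and the median log2 fold change of the list was 1.85. In Tg 15.8% of all genes passed higher. TRIB3, a pseudokinase that restrains AKT, went from 27 ± 6.05 to 397 ± 8.47 CPM (log2 3.88), DDIT3 from 7.87 ± 0.84 to 96.4 ± 6.96 (3.62), the cystathionine enzyme CTH from 5.83 ± 1.37 to 50.8 ± 0.51 (3.12) and CHAC1, which degrades glutathione, from 5.42 ± 0.97 to 39.4 ± 3.92 (2.86). With AA132, 10 passed at 10 µM (median 0.48) and 15 at 30 µM (median 0.67), all higher, and 16 had a positive slope on dose. Of all genes 1.06% and 3.86% passed higher at these doses, and 9.9% passed with a rising slope. At 30 µM SLC3A2, an amino acid transporter subunit, rose from 208 ± 26.1 to 533 ± 30.6 CPM (log2 1.36), DDIT3 to 19.9 ± 0.97 (1.34), CHAC1 to 12.7 ± 0.68 (1.23) and TRIB3 to 56.1 ± 1.41 (1.06). With a fit on only the 2 conditions compared, 1 passed at 10 µM and 8 at 30 µM. With AA147 edgeR called 0 of 18 (median 0.17).

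Of 17 paralogs of the factors, 9 had enough counts to be tested, and in Tg 2 passed higher and 3 lower, against 15.8% and 15.4% of all genes (VEGFC named after its value was seen). CALCB, a calcitonin gene-related peptide of the same family as ADM2, went from 1.68 ± 0.62 to 26.9 ± 1.4 CPM (log2 4.0, SE 0.21), with adjusted p = 1.4e-16. FGF19, a hormone related to FGF21, was at 0.362 ± 0.067 CPM in Tg and between 0.018 and 0.108 in the other conditions. It entered the test only through the Tg libraries, so its call is given no fold. That leaves CALCB as the only higher call to set against the 15.8% share. ADM, the adrenomedullin gene, fell from 17.6 ± 2.05 to 10.8 ± 1.00 CPM (log2 -0.71), while GDF11 (-0.60) and VEGFC (-0.40) fell too. CALCB also rose with AA132, to 4.25 ± 1.23 CPM at 10 µM (log2 1.33) and 5.19 ± 0.85 at 30 µM (1.63). INHBB, another activin subunit, rose at 30 µM from 2.73 ± 0.26 to 4.04 ± 0.57 CPM (log2 0.57). The INHBB call was lost in 5 alternative settings, and the CALCB call at 10 µM in 1. The share of all genes that passed higher was 1.06% at 10 µM and 3.86% at 30 µM.

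Of the receptors and processing enzymes of the factors, 8 of 23 tested fell and 2 rose in Tg, where 15.4% of all genes fell and 15.8% rose. The 2 that rose, NRP2 (log2 0.30) and ACVR2A (0.33), were named after their values were seen. FGFR3 (log2 -0.83), the VEGFA co-receptor NRP1 (-0.70, from 70.5 ± 11.2 to 43.3 ± 0.52 CPM), FGFR1 (-0.64) and the GDF15 co-receptor RET (-0.60) had the largest called changes. The GDF15 receptor GFRAL was at 0 CPM in vehicle and in Tg, and KLB, the co-receptor for FGF21, at 0.036 and 0.063 CPM. With AA132, NRP1 alone passed at 10 µM (log2 -0.30), and at 30 µM NRP1 (-0.40), FGFR2 (-0.24) and the proprotein convertase PCSK5 (-0.22) were lower. The share of all genes that passed lower was 0.388% at 10 µM and 3.21% at 30 µM. NRP1 at 10 µM was lost in 7 alternative settings. At 30 µM NRP1 was lost in 1, FGFR2 in 4 and PCSK5 in 32.

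Targets of hypoxia-inducible factor, which controls VEGFA in low oxygen, gave 2 higher and 5 lower of 17 tested in Tg, where 31.2% of all genes passed in either direction. ADM is also among the paralogs. ADM and the lactate dehydrogenase gene LDHA (log2 -0.41) were lower, and NDRG1 (0.62) and the glucose transporter SLC2A1 (0.49) higher. At AA132 10 µM edgeR called none, and at 30 µM NDRG1 (0.48), SLC2A1 (0.33) and P4HA2 (0.30) were higher and PDK1 (-0.30) lower. None of these 4 passed with only the 2 conditions compared in the fit, P4HA2 and PDK1 also failed without AA132 30 µM library 3 or vehicle library 2, P4HA2 without vehicle library 3, and PDK1 with no filter on low counts. Other secreted products gave 4 higher and 1 lower of 10 tested in Tg, where 15.8% of all genes were higher and 15.4% lower. MANF, an ER-resident protein released under stress, went from 87.1 ± 11.9 to 472 ± 22.9 CPM (log2 2.44), CRELD2 from 67.4 ± 18 to 345 ± 10.9 (2.36) and AREG, an EGF receptor ligand, from 0.838 ± 0.381 to 2.15 ± 0.36 (1.36). CLU, a secreted chaperone, was the lower one (-0.29, named after its value was seen). At AA132 10 µM 4 passed, among them MANF (1.11), CRELD2 (0.59) and HBEGF (0.54), and at 30 µM MANF (1.04) and CRELD2 (0.60). Of all genes 1.06% were higher at 10 µM, and 3.86% were higher and 3.21% lower at 30 µM. The HBEGF call was lost in 29 alternative settings, and the 10 µM count was 2 without AA132 10 µM library 2 or 3 or vehicle library 2 or 3. The 30 µM count was 4 without vehicle library 1.

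Of 12 genes that are themselves inducers of EDN1 or share its YAP and AP-1 inputs, FOS (log2 0.95) and CCN2 (0.29) rose and ANKRD1 (-0.69) and JUN (-0.37) fell in Tg. Over all genes 15.8% were higher and 15.4% lower, near the shares of this list. At AA132 10 µM ANKRD1 (0.64) and JUN (0.41) rose and EGR1 (-0.73) fell, and at 30 µM EGR1 alone passed (-0.61). Over all genes 1.06% were higher and 0.388% lower at 10 µM, and 3.21% were lower at 30 µM. Between AA132 and AA147 at 10 µM, ANKRD1 (log2 0.52, adjusted p = 0.0185) and the asparagine synthetase ASNS (0.37, adjusted p = 0.0199) were higher with AA132. Each of these 2 calls was lost in 5 alternative settings. Of the 18 genes listed as ATF4 and CHOP targets, 1 was thus higher with AA132, and 0 to 7 were in alternative settings. The number called over all genes in this comparison also moved between settings, as given below.

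By Pearson correlation of mean log2 CPM over the 11 conditions, the genes most like VEGFA were HERPUD1 (r = 0.996), EIF4EBP1 (0.995) and SELENOS (0.994, listed as VIMP). Without Tg these were 0.969, 0.97 and 0.959. For STC2 they were SLC43A1 (0.996), NIBAN1 (0.996, listed as FAM129A) and CBSL (0.995), and without Tg 0.96, 0.944 and 0.928. CBSL is a near-identical copy of CBS, so its counts are uncertain. For EDN1 they were PSPC1 (0.992), TAGLN (0.986) and SOX4 (0.982), and without Tg 0.985, 0.981 and 0.968. For INHBE, SH2B3 (0.986) fell to 0.861 without Tg, and for FGF21, CCNYL1 (0.981) fell to 0.777. GDF15 was closest to DNAJC6 (0.959), ADM2 to PPM1M (0.978) and STC1 to IGSF5 (0.914). These values are descriptions over 11 means that share 1 experiment and 1 scaling, with Tg far from the rest.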

How the data were processed

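RNA sequencing libraries of HEK293T cells were analysed, 33 in all. The deposited table holds expected counts, estimated read totals per gene that the authors did not scale between libraries, per the file headers. The genome build is GRCh38.p7, per the submitters' processing notes, and the aligner, counting tool, annotation and strand setting are not given in the sources used here. A value of 0.009 stands in place of 0 (43.5% of cells) and was set to 0. Expected counts were rounded, and 98 of 38074 entries sharing 45 names were summed, leaving 38021 genes. A further 28 entries with names turned into dates stayed in library totals only.

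The edgeR 4.0.16 quasi-likelihood F-test in R 4.3.3 used TMM scaling, the edgeR filter on low counts (17777 genes left) and all 11 conditions in 1 fit without a block. The common dispersion corresponds to a coefficient of variation of 9.08%. The threshold was 0.05 on the p-value after Benjamini-Hochberg adjustment over all genes tested. Correlations used log2 CPM with a prior count of 2. Within conditions, libraries were further apart than counting alone would give (chi-square per degree of freedom 4.67 to 64.5), so no 2 were merged as 1 library. This does not show that they are separate cultures. Counting intervals cover counting error only. Of genes outside the 8, the text names up to 4 called genes per list with the largest absolute log2 fold change, plus the 3 genes most like each member. GFRAL, KLB and SBF1 were named after their values were seen. Alternatives were DESeq2 1.42.0, other scaling, no filter, other samples in the fit, a block, a fold minimum and leaving out each library. The planned protein comparison was not run, as no protein table was used here. The 8 factors and the lists were chosen with earlier results of these data known. One called gene of the list of other secreted products is not reported here.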

Additional observations from a re-analysis of the deposited data

How the results depend on the processing

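The counts of secreted factors that passed held best for Tg (7 of 8 in every setting run), for AA132 30 µM against Tg (6) and for the dose slope (4). The slope count became 3 without the 30 µM dose, when EDN1 did not pass, and 3 with DESeq2, when GDF15 did not. Counts at the single AA132 doses moved more. Requiring an absolute log2 fold change of at least 1 left 0 factors at 3, 6 and 10 µM, 1 at 15 µM and 1 at 30 µM. With only the conditions compared in the fit, there were 0 factors at 3, 6 and 10 µM and 1 at 15 µM. With all conditions except Tg in the fit, a setting chosen after seeing the data, it was 0 at 3 µM and 2 at 15 µM. At 10 µM it was 2 with RLE scaling (VEGFA added), 2 with no filter, 2 with DESeq2 and 2 with the library number as a replicate block. For AA147 it was 1 with no filter and 1 with DESeq2. The cause of these moves was not tested. Over all genes, a fit on the conditions compared alone called 3067 genes in place of 5543 for Tg, 0 in place of 4 for AA147, 0 in place of 21 at AA132 3 µM, 25 in place of 195 at 6 µM, 8 in place of 257 at 10 µM, 46 in place of 506 at 15 µM and 74 in place of 1256 at 30 µM. DESeq2 called 26 for AA147, 64 at 3 µM, 349 at 6 µM, 466 at 10 µM, 764 at 15 µM and 56 for AA132 against AA147 in place of 13. Leaving out 1 library gave 95 to 505 genes at 6 µM, 156 to 651 at 10 µM, 257 to 918 at 15 µM, 710 to 2011 at 30 µM, 0 to 84 at 3 µM, 0 to 15 for AA147 and 0 to 77 for AA132 against AA147. The highest came without vehicle library 1 at 3, 6, 10 and 30 µM and without vehicle library 2 at 15 µM. Without the filter on low counts there were 93, 148, 371, 435 and 99 for AA147, AA132 3, 6 and 10 µM and AA132 against AA147. The fold minimum left 789 genes for Tg, 638 for AA132 30 µM against Tg, 2 for AA147, 1 for AA132 against AA147, and 2, 16, 29, 43 and 87 at 3 to 30 µM. The slope without the 30 µM dose called 2042 in place of 3284, and without Tg in the fit AA147 gave 0 and AA132 3 µM 3.

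Leaving out 1 library at a time gave 0 to 1 for AA147, 0 to 2 at AA132 3 µM, 1 to 3 at 6 µM, 1 to 3 at 10 µM, 2 to 4 at 15 µM, 3 to 4 at 30 µM and 0 to 1 for AA132 against AA147. Over 51 values of single factors and 1917 alternatives, 1815 kept direction and side of the threshold, 72 lost the threshold, 25 gained it and 5 changed sign. The sign changes came from values near 0 when 1 library was left out. They were STC1 in Tg (range -0.29 to 0.14, with 0.11 without vehicle library 2), FGF21 at 30 µM (-0.569 to 0.069) and FGF21 for AA132 against AA147 (-0.26 to 0.22, with -0.08 without AA147 library 3).

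The library numbers did not pair the samples. Same-numbered libraries of different conditions correlated at a median r of 0.0008 in their deviations (-0.15 to 0.18 over 165 pairs), and 13 of 33 libraries correlated best with their own number. With the replicate block ADM2 passed at 10 µM (adjusted p = 0.04) and at 30 µM (0.0385), and no other factor's call changed. Depth limits GDF15, STC1, ADM2, INHBE and FGF21, which held at most 37 counts in any library outside Tg.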
